A study of Homo sapiens with 27 samples.

Results

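The 9 genes described here belong to the antioxidant response that the transcription factor NRF2 controls. They are NFE2L2, GCLC, GCLM, SLC7A11, TXNRD1, SRXN1, NQO1, HMOX1 and OSGIN1. All were chosen by name, with earlier results of these data known. Each was found through its Entrez ID as 1 row of a table of read counts, so that they make up 9 of its 24566 rows. All 9 passed the filter on low counts in every fit. The table holds 27 RNA-seq libraries from 2 established human tumour cell lines, in 9 groups of 3 biological replicates collected after 48 h. The study asked how Compound Kushen Injection (CKI), an injected extract of the roots used as Kushen and Baituling in Chinese medicine, interacts with cytotoxic drugs. The MDA-MB-231 groups, from a breast adenocarcinoma line, were untreated cells, CKI at 1 mg/ml, 5-fluorouracil (5-FU, a pyrimidine analogue) at 10 ug/ml, and CKI with 5-FU. The A431 groups, from an epidermoid carcinoma line, were untreated cells, a vehicle control whose make-up the sample labels do not give, CKI at 1 mg/ml, doxorubicin (an anthracycline that poisons topoisomerase II), and CKI with doxorubicin. The labels name 2 doses of doxorubicin without assigning them to samples, so no dose is given for it. Each tissue is represented by 1 line, and no other allele or agent is named for any group.

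NRF2, the protein made from NFE2L2, is held at a low level in resting cells because KEAP1 presents it to a ubiquitin ligase built on CUL3. Electrophiles and oxidants modify cysteines of KEAP1, and NRF2 then accumulates, pairs with a small MAF protein and binds the antioxidant response element (ARE) near its target genes. The control is therefore largely on the protein, and the mRNA of NFE2L2 need not follow the activity of NRF2. The targets described here supply glutathione (GCLC, GCLM, SLC7A11), reduce thioredoxin and peroxiredoxins (TXNRD1, SRXN1), reduce quinones (NQO1), break down haem (HMOX1) or act in growth control under oxidative stress (OSGIN1).

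The core of the ARE is written TGACNNNGC. It was searched on both strands of the 1000 bases upstream of the canonical transcript start of each gene, on GRCh37, the build of the deposited files. A match was found for 5 of the 9 genes, and 32.5% of the windows of all genes hold one, so a match alone describes the sequence and is not a binding site. The 5 matches are shown 5′ to 3′ on the strand that holds the motif, with the core in capitals and 10 bases on each side, because this is the element to which NRF2 is known to bind. Whether NRF2 binds these matches was not measured.
NQO1, chr16:69760900-69760928, reverse strand: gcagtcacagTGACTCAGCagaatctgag
GCLC, chr6:53410751-53410779, forward strand: aaatatgtgtTGACAGAGCaatgacctgt
GCLM, chr1:94375002-94375030, forward strand: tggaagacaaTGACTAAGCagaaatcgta
TXNRD1, chr12:104609448-104609476, forward strand: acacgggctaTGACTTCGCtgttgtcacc
OSGIN1, chr16:83986278-83986306, forward strand: agacaatctgTGACTTGGCcccagttttc
The NQO1 match lies 451 bases upstream of the start, outside NQO1 and inside the divergent transcript NQO1-DT. Its core overlaps TGACTCA, the AP-1 motif, which 12.5% of all windows hold on either strand. The GCLC match lies 866 bases upstream of the canonical start, in an intron of longer GCLC transcripts. The GCLM match lies 30 bases upstream of the canonical start, at the edge of the annotated gene: 1 of the 9 core bases is in an exon of another GCLM transcript and the rest are outside. The TXNRD1 match lies 95 bases upstream, outside the gene, and the OSGIN1 match 553 bases upstream, in an intron of longer transcripts. In NQO1, GCLC and GCLM the core is followed by an A, a longer form that 9.5% of windows hold on either strand. The windows of NFE2L2, HMOX1, SRXN1 and SLC7A11 did not hold these letters, which says nothing of elements farther away.

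Total counts were between 19871048 and 22809339 in the MDA-MB-231 libraries and between 17757206 and 21756536 in the A431 libraries. Levels are in CPM, read counts scaled to the depth of the library, after TMM normalization over the 27 libraries. Differences are log2 fold changes with standard errors (SE) from edgeR's quasi-likelihood test, and each adjusted p is its Benjamini-Hochberg value over all genes tested. A gene is said to have risen or fallen where the adjusted p was under 0.05, and is called differentially expressed (DE) where the log2 fold change was also over 1 in size. Replicate 1 of untreated MDA-MB-231 cells stood apart: over 13374 genes its median absolute distance from the other replicates of its group was 0.32 on the log2 scale, against 0.158 and 0.201 for replicates 2 and 3 and at most 0.186 in any other group. Calls among the 9 genes that change without it are given beside the results. The summed level of the 5 epidermoid markers was 5237 to 7740 CPM in A431 and 153.5 to 363.2 CPM in MDA-MB-231, and that of the 4 mesenchymal markers was 1455 to 2731 CPM in MDA-MB-231 and 108.3 to 165.8 CPM in A431, so both lines matched their labels. Within the lines these sums moved with treatment. Mesenchymal markers were at 2597 to 2731 CPM in untreated MDA-MB-231 cells and at 1728 to 1753 CPM with CKI, and epidermoid markers were at 6669 to 7206 CPM in untreated A431 cells and at 5237 to 5390 CPM with doxorubicin. These sums hide unlike moves. Of the 4 mesenchymal markers 2 fell and 2 did not pass the test. Of the 5 epidermoid markers 2 were DE and higher and 3 DE and lower (log2 fold changes from -2.18 to 1.28), where 37.3% of all genes were DE. Of the markers of other cell types, PTPRC (leukocytes) had no count in untreated or CKI-treated A431 libraries and 23 to 31 counts with doxorubicin, and ALB (hepatocytes) had no count in untreated A431 libraries and 10 to 14 with doxorubicin. With COL1A1 (fibroblasts) these summed to 21.08 to 28.71 CPM in untreated A431 cells, 45.69 to 50.47 CPM with CKI and 41.46 to 47.67 CPM with doxorubicin. The part of these shifts in the results below was not tested. In bulk RNA, fewer cells of a kind and less RNA per cell cannot be told apart.

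**Figure D1:**
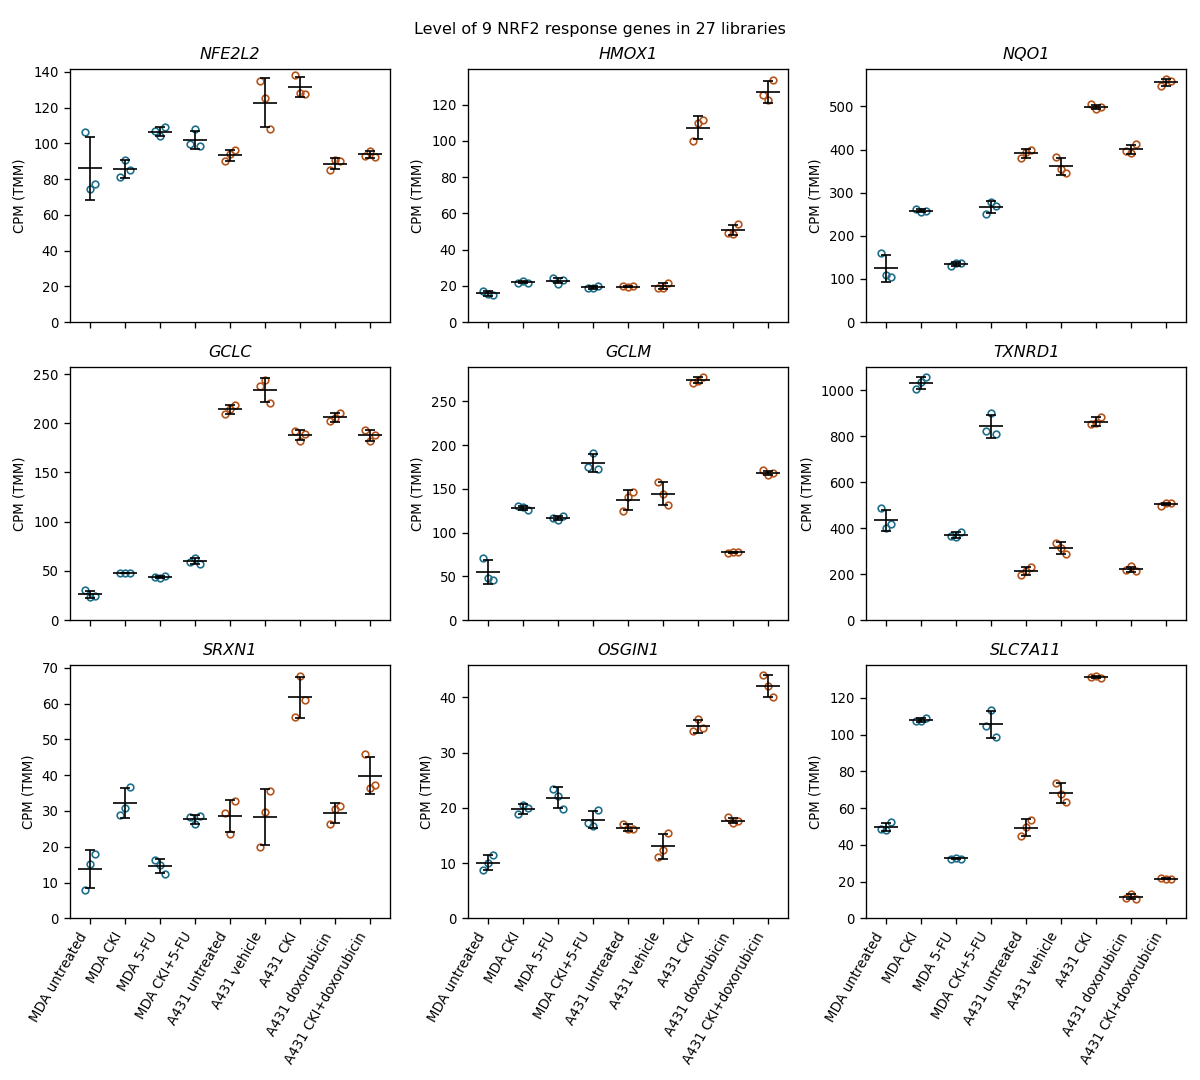
Level of each gene in every library, in CPM on a linear axis that starts at 0, with 1 panel per gene and 1 column per group (blue, MDA-MB-231; orange, A431). Circles are libraries, and bars are the group mean ± SD (n = 3). HMOX1 stays between 14.9 and 24.2 CPM in all MDA-MB-231 libraries and reaches 134 CPM in A431 cells with CKI and doxorubicin, and SLC7A11 is lowest in the doxorubicin groups.

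With CKI alone, 8 of the 9 genes rose in MDA-MB-231 cells and 8 rose in A431 cells. In MDA-MB-231, 5 genes were DE and higher (NQO1, GCLM, TXNRD1, SRXN1 and SLC7A11), where 3.76% of the 13999 genes tested were, and the median log2 fold change of the 9 was 1.05 against -0.01 over all genes. In A431, 5 genes were also DE and higher (HMOX1, TXNRD1, SRXN1, OSGIN1 and SLC7A11), where 12% of 15881 genes were, with a median of 1.01 against 0.00. Genes that rose at any size made up 17.4% of those tested in MDA-MB-231 and 33.3% in A431, while 18.8% and 33.7% fell. Because the 9 were chosen with earlier results of these data known, these shares describe the set and do not test it. The gene that did not pass the test in MDA-MB-231 was NFE2L2, and the gene that fell in A431 was GCLC. Leaving out replicate 1 of untreated MDA-MB-231 cells gave 4 DE genes in place of 5, since SRXN1 then had a log2 fold change of 0.95. The A431 count was 3 without replicate 2 of the CKI group, 3 without replicate 2 of the untreated group, and 4 with vehicle as the control.

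NFE2L2 (Entrez ID 4780, chromosome 2 from 178083395 to 178257484, reverse strand) had group means between 85.7 and 132 CPM in all 9 groups. In MDA-MB-231 it was at 106, 74.3 and 77.4 CPM in the untreated libraries, and the CKI libraries, at 81.0, 90.8 and 85.3 CPM, lay within that range (log2 fold change -0.01, SE 0.11, adjusted p 0.97). That value rests on untreated replicate 1. Without it, NFE2L2 was higher with CKI by 0.17 on the log2 scale (adjusted p 0.011). With 5-FU it rose to 107, 104 and 109 CPM (0.32, SE 0.11, adjusted p 0.029), a range that overlapped the untreated one through that same library. This call was lost under 6 of 15 alternatives, among them leaving out any single 5-FU replicate. In A431 cells it rose from 90.1, 93.9 and 96.2 CPM to 138, 128 and 128 CPM with CKI (0.42, SE 0.069, adjusted p 1.2e-05). The vehicle libraries, at 135, 125 and 108 CPM, rose by nearly the same amount (0.41, SE 0.069, adjusted p 7.4e-05), and CKI against vehicle gave 0.00 (adjusted p 0.98). With doxorubicin it was at 85.1, 90.8 and 90.1 CPM, and with CKI and doxorubicin at 92.9, 96.0 and 92.5 CPM, neither of which passed the test against untreated cells (adjusted p 0.093 and 0.80). Against vehicle both were lower (-0.54 with adjusted p 2.2e-07 and -0.43 with adjusted p 6e-06), and with offsets for the GC content and length of transcripts both were lower than untreated cells (-0.33 with adjusted p 2.3e-07 and -0.21 with adjusted p 0.00017). Exons of NFE2L2 overlap those of AGPS and HNRNPA3 on the other strand, and the libraries were not stranded, so reads of these genes cannot be told apart there.

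GCLC and GCLM encode the catalytic and the modifier subunit of glutamate-cysteine ligase, the enzyme that limits the rate of glutathione synthesis. GCLC (Entrez ID 2729, chromosome 6 from 53362139 to 53481768, reverse strand) differed between the lines more than any of the other 8 genes did. Untreated MDA-MB-231 cells held 30.5, 23.6 and 24.8 CPM and untreated A431 cells 209, 215 and 219 CPM, which do not overlap (A431 higher by 3.07 on the log2 scale, SE 0.095, adjusted p 3.6e-12). In MDA-MB-231 GCLC rose to 48.3, 47.9 and 48.3 CPM with CKI (0.87, SE 0.085, adjusted p 1.4e-05). It rose to 43.7, 42.6 and 44.5 CPM with 5-FU (0.74, SE 0.085, adjusted p 1.6e-05) and to 59.0, 63.0 and 57.1 CPM with both (1.19, SE 0.085, adjusted p 5.5e-07). The 4 groups of that line did not overlap in any pair of neighbours. In A431 it moved the other way and fell to 192, 182 and 189.6 CPM with CKI (-0.27, SE 0.054, adjusted p 0.00014), with no overlap with untreated cells. The difference between the lines in the CKI effect was -1.13 on the log2 scale (SE 0.12, adjusted p 8.6e-06). Doxorubicin left it at 202, 205 and 211 CPM (-0.11, SE 0.054, adjusted p 0.063). Exons of GCLC overlap those of the antisense gene GCLC-AS1.

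GCLM (Entrez ID 2730, chromosome 1 from 94350755 to 94375012, reverse strand) stood at 70.7, 48.4 and 45.9 CPM in untreated MDA-MB-231 cells, with replicate 1 above the others. It rose to 130.0, 129.6 and 126 CPM with CKI (1.22, SE 0.13, adjusted p 2e-05), to 117, 115 and 119 CPM with 5-FU (1.10, SE 0.13, adjusted p 1.5e-05), and to 175, 191 and 173 CPM with both (1.72, SE 0.13, adjusted p 7.7e-07). All 9 treated libraries of that line were above all untreated ones. The step from 5-FU to CKI with 5-FU was smaller than the step from untreated to CKI (difference -0.60, SE 0.18, adjusted p 0.022). In A431 cells GCLM rose from 124, 141 and 146 CPM to 272, 274 and 278 CPM with CKI (0.92, SE 0.066, adjusted p 1.9e-11). Doxorubicin lowered it to 77.3, 77.6 and 78.1 CPM (-0.87, SE 0.068, adjusted p 6.3e-11), and CKI with doxorubicin, at 171, 166 and 168 CPM, was above doxorubicin alone (1.15, SE 0.068, adjusted p 1.5e-12) and below CKI alone (-0.65, SE 0.066, adjusted p 8.4e-09). The vehicle libraries, at 158, 144 and 132 CPM, overlapped the untreated ones.

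SLC7A11 encodes the light chain of the cystine/glutamate antiporter, which brings in the cystine from which cysteine for glutathione is made (Entrez ID 23657, chromosome 4 from 139085251 to 139163503, reverse strand). The untreated lines did not differ beyond their spread, at 48.5, 48.3 and 52.2 CPM in MDA-MB-231 and 44.6, 49.7 and 53.6 CPM in A431 (0.03, SE 0.075, adjusted p 0.72). CKI raised it to 107, 107 and 109 CPM in MDA-MB-231 (1.12, SE 0.063, adjusted p 1.7e-07) and to 131, 132 and 131 CPM in A431 (1.34, SE 0.076, adjusted p 3.3e-13). Both cytotoxic drugs lowered it. With 5-FU it fell to 32.5, 33.1 and 32.5 CPM (-0.60, SE 0.064, adjusted p 8.5e-06), and with doxorubicin to 11.1, 13.4 and 10.7 CPM (-2.12, SE 0.090, adjusted p 1.1e-15), which is 4.36-fold lower than in untreated cells and the only DE fall among the 9 genes with a single agent. Adding CKI to 5-FU brought it to 104, 113 and 98.7 CPM, a range that holds all CKI libraries of that line (CKI with 5-FU against CKI, -0.02, SE 0.062, adjusted p 0.78). With GC and length offsets, however, it was lower there than with CKI alone (-0.28, adjusted p 0.00068). Adding CKI to doxorubicin brought it to 22.0, 21.4 and 21.4 CPM, above doxorubicin alone (0.91, SE 0.094, adjusted p 1.8e-08) and 5.87-fold below CKI alone (-2.55, SE 0.081, adjusted p 1.6e-17). The rise with CKI was larger in the presence of 5-FU (difference 0.57, SE 0.089, adjusted p 0.00059) and smaller in the presence of doxorubicin (-0.43, SE 0.12, adjusted p 0.0043), although the second difference was 0.057 (adjusted p 0.71) with vehicle as the control. The vehicle libraries, at 73.6, 67.7 and 63.2 CPM, were themselves above the untreated ones (0.49, SE 0.077, adjusted p 4e-05), a call that GC and length offsets ended (0.096, adjusted p 0.28). With those offsets SLC7A11 was also higher in untreated A431 than in untreated MDA-MB-231 cells (0.26, adjusted p 0.0037). SLC7A11-AS1 overlaps its exons on the other strand.

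TXNRD1 encodes cytosolic thioredoxin reductase, which uses NADPH to keep thioredoxin reduced (Entrez ID 7296, chromosome 12 from 104609557 to 104744085, forward strand). It rose with CKI in both lines, and no CKI library overlapped an untreated one. In MDA-MB-231 it went from 486, 400.2 and 418 CPM to 1004, 1035 and 1057 CPM (1.25, SE 0.074, adjusted p 2.6e-07). In A431 it went from 198, 213 and 233 CPM to 852, 856 and 884 CPM (1.93, SE 0.068, adjusted p 8.1e-17), a 3.81-fold rise. The A431 rise was larger than the MDA-MB-231 rise by 0.69 on the log2 scale (SE 0.12, adjusted p 0.00045), but the vehicle libraries were at 338, 314 and 288 CPM (0.56 above untreated, SE 0.067, adjusted p 1.2e-06), and against vehicle the difference between the lines was 0.13 (adjusted p 0.42). 5-FU lowered it slightly, to 366, 361 and 385 CPM (-0.22, SE 0.073, adjusted p 0.020), a call lost under 4 of 15 alternatives. Doxorubicin left it at 217, 234 and 212 CPM, which overlaps untreated cells (-0.01, SE 0.067, adjusted p 0.87). With CKI and 5-FU it was at 821, 900.1 and 808 CPM and with CKI and doxorubicin at 498, 508 and 509 CPM. In each line the combination therefore lay between the drug alone and CKI alone (against CKI alone, -0.28 with adjusted p 0.0089 and -0.72 with adjusted p 1.4e-09).

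SRXN1 encodes sulfiredoxin, which repairs over-oxidized peroxiredoxins (Entrez ID 140809, chromosome 20 from 627259 to 633844, reverse strand). Its log2 fold changes with CKI had the largest SE of the 9 genes in both lines. In untreated MDA-MB-231 cells it was at 7.88, 15.2 and 18 CPM, with replicate 1 the lowest, and CKI brought it to 28.8, 31.0 and 36.8 CPM (1.22, SE 0.22, adjusted p 0.0011). In A431 it rose from 29.5, 23.7 and 32.7 CPM to 56.3, 67.8 and 61.1 CPM with CKI (1.04, SE 0.14, adjusted p 7.4e-07). Neither 5-FU (16.3, 14.8 and 12.5 CPM, adjusted p 0.77) nor doxorubicin (26.4, 30.6 and 31.4 CPM, adjusted p 0.95) moved it past the test, and both ranges overlapped untreated cells. With CKI and 5-FU it was at 28.2, 26.3 and 28.6 CPM (0.93 above 5-FU alone, SE 0.22, adjusted p 0.0038). With CKI and doxorubicin it was at 45.8, 36.3 and 37.4 CPM (0.47 above doxorubicin alone, SE 0.14, adjusted p 0.0063), and the CKI step was smaller than without doxorubicin (difference -0.57, SE 0.20, adjusted p 0.018). That difference lost its call under 3 of 22 alternatives, and the rise over doxorubicin alone under 1 of 15.

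NQO1 encodes a quinone reductase long used as a marker of NRF2 activity (Entrez ID 1728, chromosome 16 from 69740899 to 69760571, reverse strand). In MDA-MB-231 it rose from 160.0, 108 and 105 CPM to 263, 254 and 258 CPM with CKI (1.05, SE 0.13, adjusted p 6.2e-05) and stayed there with 5-FU added, at 252, 277 and 270.2 CPM. 5-FU alone gave 130.0, 137 and 138 CPM, inside the untreated range (0.12, SE 0.13, adjusted p 0.43). Without untreated replicate 1 the 5-FU value was 0.34 (adjusted p 1.3e-06) and the CKI value 1.27. A431 cells started higher, at 380.4, 395 and 400.0 CPM (1.69 above MDA-MB-231, SE 0.13, adjusted p 5.1e-08), and rose less, to 505, 494 and 498 CPM (0.27, SE 0.052, adjusted p 6.4e-05). The difference in CKI effect between the lines was -0.77 (SE 0.18, adjusted p 0.0034). Doxorubicin left NQO1 at 396, 392 and 413 CPM (-0.02, adjusted p 0.70), and CKI with doxorubicin gave its highest levels, 548, 563 and 558 CPM (0.50 above doxorubicin alone, SE 0.052, adjusted p 1.6e-08). The rise over CKI alone (0.21, SE 0.051, adjusted p 0.001) was lost with GC and length offsets (-0.0066, adjusted p 0.89).

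HMOX1 encodes haem oxygenase 1, which opens the haem ring and is held down by BACH1 until haem or oxidants release it (Entrez ID 3162, chromosome 22 from 35776354 to 35790207, forward strand). Without treatment it was at 17.1, 15.4 and 14.9 CPM in MDA-MB-231 and at 19.7, 19.4 and 19.8 CPM in A431 (0.35 higher, SE 0.078, adjusted p 0.00098, but 0.050 with adjusted p 0.59 with GC and length offsets), and with CKI the lines were far apart. In MDA-MB-231 it rose to 21.8, 22.5 and 21.8 CPM (0.48, SE 0.077, adjusted p 0.00047). In A431 it rose 5.18-fold, to 99.9, 110.1 and 112 CPM (2.37, SE 0.072, adjusted p 6.4e-18). The difference in CKI effect was 1.90 on the log2 scale (SE 0.11, adjusted p 3.8e-08) and 1.87 against vehicle, whose libraries were at 18.7, 18.8 and 21.8 CPM. Doxorubicin alone raised it to 49.4, 48.7 and 53.9 CPM (1.31, SE 0.074, adjusted p 1.7e-13), and with CKI it reached 125, 122 and 134 CPM. None of the A431 groups with an active agent overlapped another. The combined level was 6.36-fold that of untreated cells, and the CKI step was smaller on top of doxorubicin (1.35, SE 0.065) than alone (difference -1.02, SE 0.097, adjusted p 6.9e-09). 5-FU raised it in MDA-MB-231, to 24.2, 21.1 and 23.4 CPM (0.54, SE 0.076, adjusted p 7.6e-05), but CKI with 5-FU, at 18.7, 18.9 and 19.9 CPM, was below 5-FU alone (-0.26, SE 0.075, adjusted p 0.014). That last call was lost under 4 of 15 alternatives.

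OSGIN1 encodes a growth inhibitor induced by oxidative stress (Entrez ID 29948, chromosome 16 from 83964916 to 83999937, forward strand), and its exons overlap those of MLYCD on the same strand. In MDA-MB-231 it rose from 8.66, 10.0 and 11.4 CPM to 18.9, 20.6 and 20.0 CPM with CKI (0.98, SE 0.11, adjusted p 3.8e-05) and to 23.5, 22.2 and 19.9 CPM with 5-FU (1.13, SE 0.11, adjusted p 3.7e-06). Together the agents gave 17.2, 16.7 and 19.6 CPM, which overlaps CKI alone. It is below 5-FU alone (-0.29, SE 0.10, adjusted p 0.035), a call lost under 7 of 15 alternatives. The CKI effect thus differed with and without 5-FU by -1.27 on the log2 scale (SE 0.15, adjusted p 0.00011). In A431 it rose from 17.1, 16.1 and 16.1 CPM to 33.8, 36.1 and 34.4 CPM with CKI (1.01, SE 0.086, adjusted p 4.1e-10). Doxorubicin gave 18.3, 17.2 and 17.6 CPM (0.06, SE 0.091, adjusted p 0.58), all above untreated cells but not past the test, and CKI with doxorubicin gave 44.1, 42.0 and 40.0 CPM (1.28 above doxorubicin alone, SE 0.083, adjusted p 7.1e-12). The vehicle libraries were the lowest of the line, at 11.1, 12.4 and 15.4 CPM (-0.32, SE 0.095, adjusted p 0.0098).

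**Figure D2:**
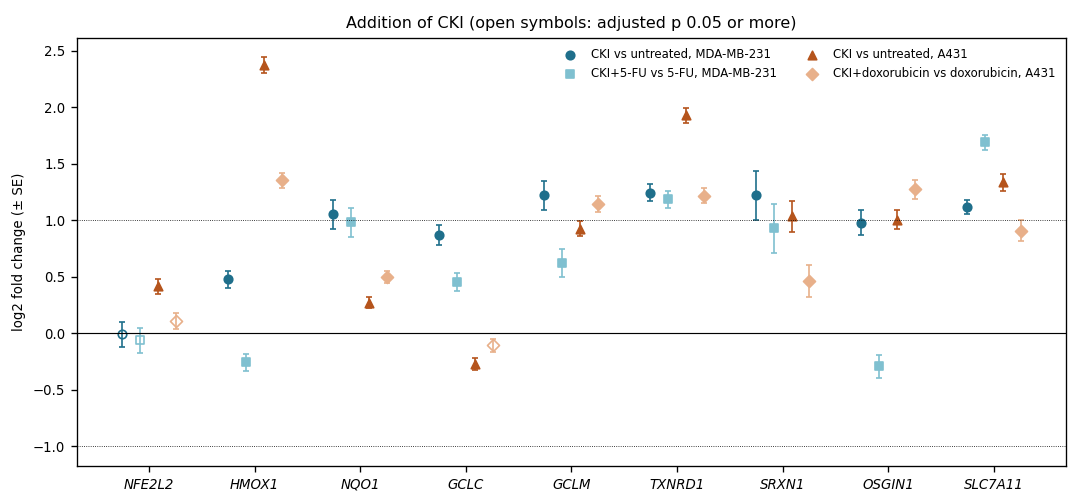
Log2 fold change ± SE of each gene when CKI was added, to untreated cells (dark symbols) or to cells with the cytotoxic drug (light symbols), in MDA-MB-231 (blue) and A431 (orange). Filled symbols have an adjusted p under 0.05 and the dotted lines mark a log2 fold change of 1; TXNRD1 is above 1 in all 4 comparisons, whereas HMOX1 is at 2.37 in A431 and at -0.26 on top of 5-FU.

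The drugs alone did not move the 9 genes as a block. With 5-FU, 5 of the 9 rose and 2 fell, where 28.6% of all genes rose and 28.5% fell, and 2 were DE and higher (GCLM and OSGIN1), where 6.01% of all genes were. Without replicate 3 of the untreated group 1 gene was DE. The rise of NFE2L2 and the fall of TXNRD1 lost their calls under 6 and 4 of 15 alternatives. OSGIN1, GCLM and GCLC were up by 0.74 or more, while SLC7A11 and TXNRD1 were down. With doxorubicin, 1 gene rose (HMOX1) and 2 fell (GCLM and SLC7A11), and 2 were DE, 1 in each direction, where 80.6% of all genes passed the test and 37.3% were DE. The other 6 genes lay between -0.13 and 0.06 on the log2 scale. Scaling by library size alone raised the median of all genes in this comparison by 0.34, and the same 6 genes then lay at or above 0.22. With GC and length offsets 8 of the 9 passed the test, 5 of these 6 among them (NFE2L2 -0.33, GCLC -0.30, NQO1 -0.22, TXNRD1 -0.20 and OSGIN1 0.41). Against vehicle 7 passed, with TXNRD1 at -0.57, NFE2L2 at -0.54, GCLC at -0.25 and OSGIN1 at 0.37. The vehicle control raised 4 of the 9 (NFE2L2, GCLC, TXNRD1 and SLC7A11) and lowered OSGIN1, none of them DE, where 42.5% of all genes passed the test and 2.54% were DE. Vehicle against untreated followed the GC content of transcripts across genes (Spearman's rho -0.58 over the genes tested, which are not independent replicates), and offsets for GC and length changed most of these values. With them GCLC (-0.055), OSGIN1 (0.19) and SLC7A11 (0.096) no longer passed the test, HMOX1 was higher (0.30, adjusted p 0.0024), and GCLM (-0.24, adjusted p 0.00043) and NQO1 (-0.25, adjusted p 2.6e-05) were lower, while NFE2L2 (0.23) and TXNRD1 (0.35) still rose.

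**Figure D3:**
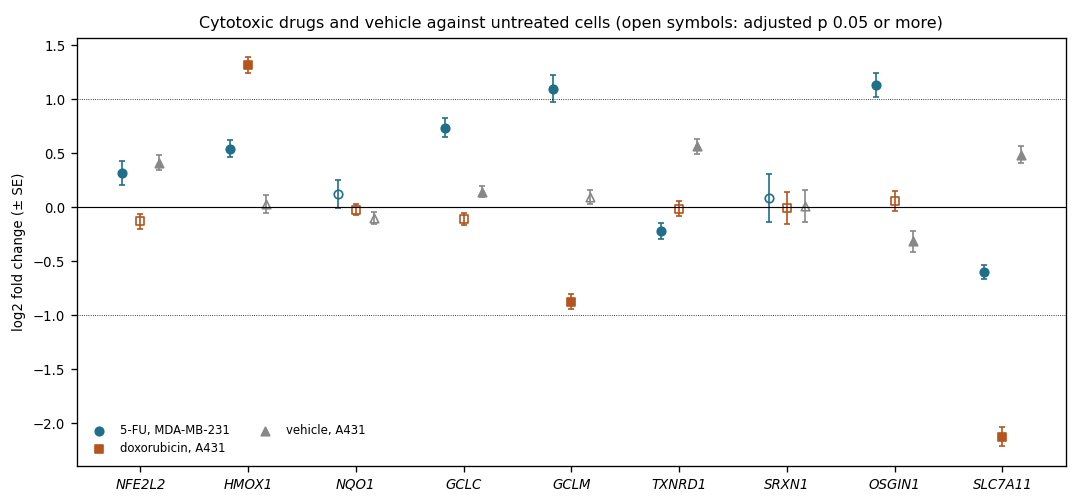
Log2 fold change ± SE of each gene against untreated cells of its line for 5-FU (blue circles), doxorubicin (orange squares) and the vehicle control (grey triangles). Filled symbols have an adjusted p under 0.05, and dotted lines mark a log2 fold change of 1 in size; SLC7A11 is at -2.12 and HMOX1 at 1.31 with doxorubicin, while 6 genes are near 0.

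Each combination was compared with untreated cells and with each of its agents. Comparisons within a line share libraries, so their values are given side by side. CKI with 5-FU against untreated cells raised 8 of the 9 genes and made 5 DE (NQO1, GCLC, GCLM, SRXN1 and SLC7A11), where 26% of all genes rose and 4.29% were DE and higher. Without untreated replicate 1 all 9 passed, NFE2L2 being at 0.43 (adjusted p 1.4e-07). Against 5-FU alone, 6 rose and 2 fell (HMOX1 and OSGIN1), and TXNRD1 and SLC7A11 were DE, where 25.9% of all genes rose, 24.5% fell and 5.26% were DE and higher. The falls lost their calls under 4 (HMOX1) and 7 (OSGIN1) of 15 alternatives, GC and length offsets among them for both genes. Against CKI alone none was DE, where 3.81% of all genes were. GCLC and GCLM rose (0.32 and 0.49) and TXNRD1 fell (-0.28), where 42.1% of all genes passed edgeR's test. With GC and length offsets 5 of the 9 passed, SLC7A11 (-0.28, adjusted p 0.00068) and OSGIN1 (0.24, adjusted p 0.03) being added. CKI with doxorubicin against untreated cells raised 6 genes and lowered 2, and 3 were DE and higher (HMOX1, TXNRD1 and OSGIN1) and 1 DE and lower (SLC7A11), where 79.2% of all genes passed the test and 35.5% were DE. Against doxorubicin alone, 7 rose and none fell, and 4 were DE (HMOX1, GCLM, TXNRD1 and OSGIN1), where 33.8% of all genes rose and 6.89% were DE and higher. The median of the 9 was 0.91 there, against 0.03 over all genes. Against CKI alone, 3 rose and 5 fell, and SLC7A11 was DE, where 73.3% of all genes passed the test and 25.7% were DE. With GC and length offsets NQO1 was no longer among those that rose (-0.0066, adjusted p 0.89).

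**Figure D4:**
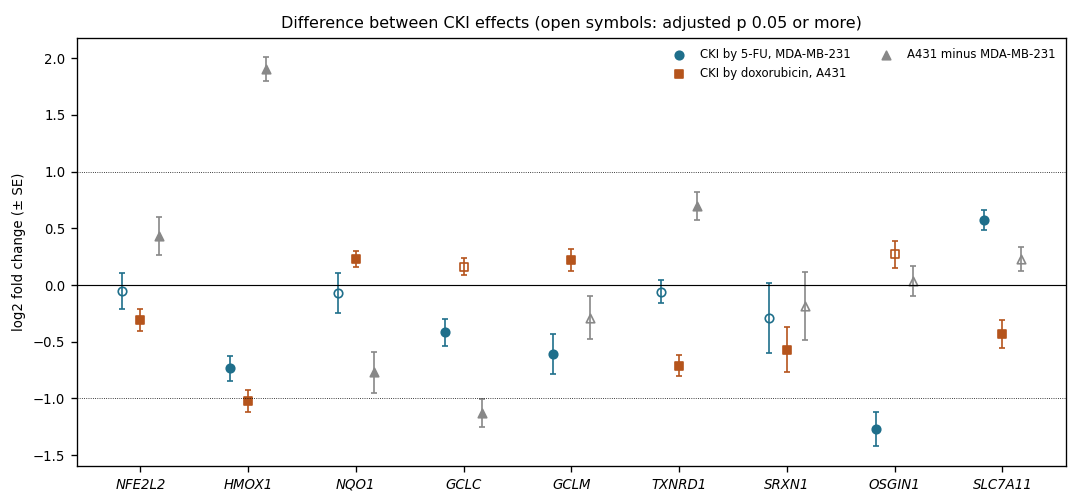
Differences between CKI effects on the log2 scale ± SE: with minus without 5-FU in MDA-MB-231 (blue circles), with minus without doxorubicin in A431 (orange squares), and A431 minus MDA-MB-231 without a drug (grey triangles). Filled symbols have an adjusted p under 0.05; OSGIN1 (-1.27), HMOX1 (-1.02 and 1.90) and GCLC (-1.13) lie past the dotted lines at 1 in size.

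The test of these differences called 5 genes for CKI and 5-FU, 1 higher and 4 lower, with OSGIN1 DE, where 31.4% of all genes passed and 6.84% were DE. Without untreated replicate 1 it called 7, adding NQO1 (-0.29, adjusted p 0.00071) and NFE2L2 (-0.23, adjusted p 0.010). It called 7 for CKI and doxorubicin, 2 higher and 5 lower, with HMOX1 DE, where 57.4% of all genes passed and 19.5% were DE. With vehicle as the control 4 were called: TXNRD1 (-0.15, adjusted p 0.17), NQO1 (0.13, adjusted p 0.13), NFE2L2 and SLC7A11 were no longer among them, and GCLC (0.30, adjusted p 0.0015) was. The call of GCLM (0.22, adjusted p 0.049) was lost under 16 of 22 alternatives, and that of SRXN1 (-0.57, adjusted p 0.018) under 3. HMOX1 was close to the size threshold, and it was not DE with vehicle as the control, with no filter on low counts, or without any of 4 single libraries (replicates 2 and 3 of CKI, replicate 2 of CKI with doxorubicin and replicate 3 of doxorubicin), while its fold change kept its sign and its adjusted p stayed under 0.05. Between the lines 5 genes were called, 3 with a larger log2 change in A431 (NFE2L2, HMOX1 and TXNRD1) and 2 with a larger one in MDA-MB-231 (NQO1 and GCLC), and HMOX1 and GCLC were DE, where 47% of all genes passed and 18.5% were DE. Against the vehicle control the difference was 0.02 for NFE2L2 (adjusted p 0.96) and 0.13 for TXNRD1 (adjusted p 0.42). Both calls thus rest on the choice of control, and with vehicle 3 genes were called. With GC and length offsets 7 were called, GCLM (-0.59, adjusted p 0.00023) and OSGIN1 (0.60, adjusted p 0.00081) being added. Without untreated MDA-MB-231 replicate 1, 7 genes were called and 3 were DE, with GCLM (-0.52, adjusted p 1.3e-06) and SLC7A11 (0.24, adjusted p 0.016) added to the called genes. Line and any difference in handling between the lines cannot be told apart.

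Untreated A431 cells held more than untreated MDA-MB-231 cells of 6 of the 9 genes and less of TXNRD1 (-0.98, SE 0.088, adjusted p 2.3e-07), and 4 were DE and higher (NQO1, GCLC, GCLM and SRXN1), where 78.6% of all genes passed the test and 22.5% were DE and higher. With GC and length offsets HMOX1 (0.050) and OSGIN1 (0.20, adjusted p 0.063) lost their calls, and NFE2L2 (0.27, adjusted p 0.00079) and SLC7A11 (0.26) gained one. NFE2L2 also gained one without untreated MDA-MB-231 replicate 1 (0.35, adjusted p 3.6e-06). Compared per kilobase of canonical transcript, which makes levels of different genes comparable, untreated MDA-MB-231 cells were led by TXNRD1 at 113 ± 11.8 CPM per kb (SD, n = 3), then NQO1 at 49.4 ± 12.2 and NFE2L2 at 35.2 ± 7.24, with the other 6 genes between 5.15 and 11.3. Untreated A431 cells were led by NQO1 at 155 ± 4.02 CPM per kb, with GCLC at 56.6 ± 1.21 and TXNRD1 at 55.6 ± 4.59 next, and SLC7A11 was last at 5.11 ± 0.468. GCLM was above GCLC per kb in untreated MDA-MB-231 cells, at 11.3 ± 2.79 against 6.95 ± 0.963, and below it in untreated A431 cells, at 28.1 ± 2.31 against 56.6 ± 1.21.

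Over the 9 groups, the order of levels differed by gene. CKI with doxorubicin in A431 was the highest group for HMOX1, NQO1 and OSGIN1, each time clear of the next group, CKI alone. For NQO1 that lead over CKI alone was lost with GC and length offsets (-0.0066, adjusted p 0.89). CKI alone in A431 was the highest for NFE2L2, GCLM, SRXN1 and SLC7A11, clear of the next group except for NFE2L2, where it overlapped the vehicle control. CKI alone in MDA-MB-231 was the highest for TXNRD1, clear of the rest, and the vehicle control in A431 for GCLC, clear of untreated A431 cells. Untreated MDA-MB-231 cells were lowest for HMOX1, NQO1, GCLC, GCLM, SRXN1 and OSGIN1. They overlapped the next group for NQO1 and SRXN1, where that group was 5-FU, and for OSGIN1, where it was the vehicle control of A431. CKI alone in MDA-MB-231 was lowest for NFE2L2, where it overlapped untreated cells. Doxorubicin was lowest for SLC7A11, clear of CKI with doxorubicin, and untreated A431 cells for TXNRD1, where doxorubicin overlapped them.

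The genes that control NRF2 or pair with it were counted as a list of 10. With CKI in MDA-MB-231, 3 rose and 2 fell, none DE (of all genes 17.4% rose and 18.8% fell), and SQSTM1, whose product draws KEAP1 away for autophagy, had the smallest adjusted p (0.74, SE 0.081, adjusted p 3.2e-05). With CKI in A431, 7 rose and 2 fell, and 5 were DE and higher (of all genes 33.3% rose, 33.7% fell and 12% were DE and higher). These were the small MAF genes MAFF (1.12), MAFG (1.31) and MAFK (1.21), BACH1 (1.02), whose product competes with NRF2 at the ARE, and SQSTM1 (1.09, from 336 to 382 CPM in the untreated libraries to 780.2 to 833 CPM), with adjusted p from 3.3e-10 to 6.6e-15. The effect on BACH1 differed between the lines (difference 1.30, SE 0.11, adjusted p 1.3e-06), and so did that on MAFF (1.06, SE 0.20, adjusted p 0.00081), where 18.5% of all genes were DE. These values are against untreated cells, and values against vehicle are not given for this list. The vehicle control in A431 raised 5 of the 10 and lowered 1, none DE, where 42.5% of all genes passed the test. The 10 then lay between -0.28 and 0.80 on the log2 scale. KEAP1 stood at 247, 249 and 252 CPM with 5-FU against 119.8, 112 and 121 CPM with CKI and 5-FU. It was the 1 list member DE there (-1.08, SE 0.073, adjusted p 4e-07), where 1368 of 13999 genes were DE. With 5-FU alone SQSTM1 was the 1 list member DE (1.05, SE 0.081, adjusted p 6.5e-07), where 6.01% of all genes were DE and higher. With doxorubicin MAFF (1.5) and MAFG (1.26) were DE and higher and CUL3 DE and lower (-1.17), a count near the 37.3% of all genes that were DE. With CKI added to doxorubicin MAFK was DE (1.55, SE 0.10, adjusted p 1.6e-11), where 6.89% of all genes were DE and higher. The CKI effect on MAFF was smaller with doxorubicin (-1.31, SE 0.11, adjusted p 6.4e-10), where 19.5% of all genes were DE. BACH1 was lower in untreated A431 than in untreated MDA-MB-231 cells (-1.83, SE 0.084, adjusted p 1.9e-10), where 78.6% of all genes passed the test.

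Other known NRF2 targets were counted in 4 lists, and from each the gene with the smallest adjusted p is named. Of all genes, 17.4% rose and 18.8% fell with CKI in MDA-MB-231, 33.3% rose and 33.7% fell with CKI in A431, 25.9% rose when CKI was added to 5-FU, 33.8% rose when it was added to doxorubicin, and 80.6% passed the test with doxorubicin alone. The 5 genes of NADPH supply, the pentose phosphate and malic enzymes that feed TXNRD1, NQO1 and glutathione reductase, all rose with CKI in MDA-MB-231 (median 0.71), 4 rose in A431 (median 1.18), and all 5 rose when CKI was added to 5-FU (0.84) or to doxorubicin (0.57). TALDO1 had the smallest adjusted p in MDA-MB-231 (0.71, SE 0.053, adjusted p 1.6e-06) and ME1 in A431 (1.58, SE 0.059, adjusted p 1.9e-16). Doxorubicin lowered 4 of the 5 (median -1.36), with TALDO1 at -2.22 (SE 0.054, adjusted p 7.1e-20). Of the 5 iron and haem genes, 4 rose and 1 fell with CKI in MDA-MB-231 and 3 rose and 2 fell in A431, and FTL, the ferritin light chain, had the smallest adjusted p in both lines (1.03 with adjusted p 3.1e-06 and 1.30 with adjusted p 3.3e-15). Of the 9 detoxification and export genes, 5 rose and none fell in MDA-MB-231, TRIM16 having the smallest adjusted p (1.48, SE 0.071, adjusted p 3.9e-08). In A431 7 rose and 2 fell, PIR having the smallest adjusted p (0.84, SE 0.058, adjusted p 8.5e-12) and ABCC2, an export pump, the largest rise (1.55, SE 0.17, adjusted p 2.1e-08). Doxorubicin lowered PIR by more than any other gene of that list (-3.10, SE 0.068, adjusted p 9.5e-21). Of the 9 glutathione and thioredoxin genes, 1 rose and 5 fell with CKI in A431. GSS, glutathione synthetase, had the smallest adjusted p (-0.72, SE 0.057, adjusted p 1.1e-10), and the extremes were MGST1 (-1.97, SE 0.50, adjusted p 0.0013) and GSTM3 (1.15, SE 0.14, adjusted p 1.4e-07), both glutathione transferases. In MDA-MB-231, 5 rose and none fell of the 8 tested. There GSR, glutathione reductase, had the smallest adjusted p (0.73, SE 0.085, adjusted p 4.8e-05) and GSTM3 the largest rise (1.03, SE 0.13, adjusted p 8.8e-05). ABCC2, MGST1 and GSTM3 were chosen after their values were seen.

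Targets of 2 other regulators that share genes or inducers with NRF2 were counted beside them. Of 5 targets of the aryl hydrocarbon receptor, 4 rose with CKI in MDA-MB-231 and 5 in A431, where 17.4% and 33.3% of all genes rose. In MDA-MB-231 3 and in A431 all 5 were DE and higher, where 3.76% and 12% of all genes were. These counts are against untreated cells, and CKI against vehicle is not given for these 5 genes. Vehicle against untreated A431 cells made 1 of the 5 DE and higher and 1 DE and lower. There 2.54% of all genes were DE, and the 5 lay between -1.15 and 1.66 on the log2 scale. CYP1A1, a cytochrome of xenobiotic oxidation, rose from between 0.880 and 1.77 CPM to between 93.2 and 99.0 CPM in MDA-MB-231 (6.28, SE 0.15, adjusted p 1.5e-10) and from between 3.41 and 4.17 CPM to between 432 and 460.1 CPM in A431 (6.77, SE 0.092, adjusted p 1.2e-23). Of 8 targets of ATF4, the amino acid response factor that also acts on SLC7A11, none rose and 5 fell with CKI in MDA-MB-231, and 3 rose and 5 fell in A431, where 18.8% and 33.7% of all genes fell. ASNS, asparagine synthetase, had the smallest adjusted p in MDA-MB-231 (-0.98, SE 0.058, adjusted p 2.5e-07) and PHGDH, the first enzyme of serine synthesis, in A431 (-1.45, SE 0.068, adjusted p 9.9e-15). SLC7A11 rose in those same comparisons. With doxorubicin, where SLC7A11 fell, 5 of the 8 fell and 2 rose, near the 80.6% of all genes that passed the test, and 1 that rose was DDIT3, which encodes the stress factor CHOP (2.70, SE 0.072, adjusted p 3.5e-19).

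For each gene, the genes with the most similar profile were sought among 13374 genes by Pearson's r over the 27 libraries, on log2 CPM centred on the mean of the line. Libraries of a group share their treatment, so r is a description and carries no p. The nearest were ATAD1 for NFE2L2 (r = 0.910), FDX1 for GCLC (0.878), ABCG2 for GCLM (0.949), NUDT16 for SLC7A11 (0.988), SC5D for TXNRD1 (0.977), ESRRA for SRXN1 (0.944), TRIM16 for NQO1 (0.939), TP53INP2 for HMOX1 (0.973) and CREB3 for OSGIN1 (0.971). None of the 9 genes was among the nearest pair of genes of another. Within a line some of the 9 were still close, such as GCLC and GCLM in MDA-MB-231 (r = 0.997) and NQO1 and OSGIN1 in A431 (0.960). Others were opposed, such as HMOX1 and GCLC in A431 (-0.902).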

How the data were processed

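RNA-seq was deposited for 27 libraries of total RNA, 3 in each of 9 groups, which were taken from the sample labels. Per the labels, the authors trimmed unstranded paired-end reads with Trim Galore 0.3.7, aligned them to hg19 (GRCh37) with STAR 2.5.3a, and deposited raw counts of reads per gene. The counting tool and annotation are not given in the sources used here. Rows were named through Entrez IDs (24422 of 24566 matched a RefSeq table for GRCh38, used for names only). Positions, lengths and sequences came from GRCh37 with GENCODE annotation.

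Counts were tested with edgeR 4.0.16 in R 4.3.3 (TMM, filterByExpr, glmQLFit, glmQLFTest, Benjamini-Hochberg), with all groups of a line in 1 fit, and with untreated and CKI libraries from each line for comparisons between lines. The fits were tested on simulated data. Thresholds were an adjusted p of 0.05 and a log2 fold change of 1. Likeness between genes used log2 CPM with a prior count of 2. The lowest chi-square between replicates was 1.88 per degree of freedom, so none was taken as a duplicate. A level of 3 counts is about 0.15 CPM, for counting error only. Genes from other lists were named where they control or partner NRF2 and were DE, or had the smallest adjusted p of their list. The members and lists were chosen with earlier results of these data known. Alternatives were DESeq2 1.42.0, RLE factors, library size alone, other filters, the compared groups alone, vehicle as the control, a replicate block, offsets for GC and length (lowess span 0.3), and leaving out each replicate.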

Additional observations from a re-analysis of the deposited data

Results flagged for a closer look

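Of the 27 differences between CKI effects that were tested over the 9 genes (3 kinds of difference), 4 passed the adjusted p of 0.05 and exceeded 1 on the log2 scale, and these are given because an effect of CKI differed between conditions or lines by a direct test. The effect of CKI on OSGIN1 was lower with 5-FU than without by 1.27 (value -1.27, SE 0.15, adjusted p 0.00011 from edgeR), with a change of 0.98 without 5-FU and -0.29 with it. The effect of CKI on HMOX1 was lower with doxorubicin than without (value -1.02, SE 0.097, adjusted p 6.9e-09), and all 6 libraries with CKI in A431 were above all the others of that line. The effect of CKI on HMOX1 was higher in A431 than in MDA-MB-231 (value 1.90, SE 0.11, adjusted p 3.8e-08), with 3 of 3 CKI libraries above 3 of 3 untreated ones in each line. The effect of CKI on GCLC was lower in A431 than in MDA-MB-231 (value -1.13, SE 0.12, adjusted p 8.6e-06), with 3 of 3 CKI libraries below all untreated ones in A431 and 3 of 3 above them in MDA-MB-231. Groups of 3 are too small for a test of single outlying samples.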

How the results depend on the processing

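The 9 genes gave 135 fold changes over 15 comparisons. All 38 that were DE kept their call by adjusted p and their direction under every alternative run, and of the 98 called at any size 72 did. Of 2223 alternative values, 180 changed side of the threshold or sign; in 66 more, uncalled both times, only the sign changed. Counts of DE genes among the 9 moved in several comparisons, the following among them. CKI by doxorubicin, 1 at first, gave 0 with no filter on low counts and 0 with the vehicle control, and 0 to 1 when single replicates were left out. As single replicates were left out, 5-FU against untreated gave 1 to 2, and CKI against untreated in A431 gave 3 to 5. The latter was 6 with library size alone and 4 with GC and length offsets. CKI with 5-FU against untreated, 5 at first, gave 4 with DESeq2 or RLE factors and 6 with library size alone. CKI against untreated in MDA-MB-231, 5 at first, gave 6 with library size alone. Leaving out single replicates gave 4 to 5 for the former and 4 to 6 for the latter. It gave 2 to 3, from 2 at first, for CKI with 5-FU against 5-FU and for the cell line by CKI difference. Library size alone in place of TMM raised the median of all genes by 0.344 with doxorubicin and by 0.314 with CKI and doxorubicin, both against untreated, and DE genes of all kinds were then 78.3% higher in place of 61.6%, and 77.5% in place of 61.2%. With 5-FU the share went from 45.1% to 59.8%, with CKI and 5-FU from 47.4% to 62.7%, against CKI alone from 33.2% to 45.8% (5-FU) and from 64.7% to 76.7% (doxorubicin), and for CKI by doxorubicin from 44% to 33%. GC and length offsets moved it from 41.1% to 60.7% for vehicle, with 247 DE genes in place of 404, and left 348 in place of 533 for CKI and 5-FU against CKI; at least 10 counts in every library, which tests fewer genes, left 174 and 340.

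Values that turned sign were these, and their cause was not tested. With library size alone, doxorubicin against untreated gave NFE2L2 0.22, GCLC 0.23, NQO1 0.32, TXNRD1 0.33 and SRXN1 0.34, and CKI with doxorubicin against untreated gave GCLC 0.10 and NFE2L2 0.30. With at least 10 counts in every library, doxorubicin gave NQO1 0.14 and TXNRD1 0.15. With GC and length offsets, alone and with the replicate block, vehicle gave GCLC -0.055 and -0.055, GCLM -0.24 and -0.24 and OSGIN1 0.19 and 0.19; GCLM was -0.016 and -0.015 for CKI with doxorubicin against untreated, NQO1 -0.0066 and -0.0066 for it against CKI, and OSGIN1 0.24 and 0.24 for CKI with 5-FU against CKI. With the vehicle control, CKI by doxorubicin gave NFE2L2 0.11 and SLC7A11 0.057. NFE2L2 with CKI in MDA-MB-231 ranged from -0.10 to 0.17 as replicates were left out, the highest without untreated replicate 1.

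Replicate numbers are shared between groups, but libraries with the same number did not deviate together in every pair (correlations from -0.32 to 0.16). Libraries with different numbers were not correlated for comparison, so these values cannot settle whether the numbers pair the samples. With the replicate number as a block, 132 of 135 values kept their call and direction and the counts of DE genes among the 9 did not move. The calls lost were GCLM for CKI by doxorubicin (0.22, adjusted p 0.065), NFE2L2 for the cell line by CKI difference (0.41, adjusted p 0.082) and OSGIN1 for CKI with 5-FU against 5-FU (-0.30, adjusted p 0.050).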
